A study of Homo sapiens with 6 samples.

Results

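The S100 proteins and the annexins are the calcium-binding families described here, in KNS42 cells depleted of the RNA-binding protein MSI1. A gene was taken when its row of the deposited expression table was protein-coding and its symbol started with S100A, S100B, S100P or S100Z, or with ANXA and a digit. This rule used names only and found 35 of the 58174 genes in the table. They comprise 20 S100 genes, 13 annexin genes and 2 genes that match by name alone: S100PBP, which encodes a protein that binds S100P, and ANXA2R, a receptor for annexin A2. S100G falls outside the rule and had at most 1 read in any library.

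KNS42 is an established cell line from a pediatric glioblastoma (GBM), grown adherently in medium with 10% serum. Cells were transfected with a pool of siRNAs against MSI1 (siMSI1, n = 3 libraries) or with a control siRNA (siC, the controls, n = 3 libraries), and polyA RNA was sequenced 72 h later. The labels do not say whether replicates were separate cultures, so p-values measure the spread between these libraries only, and with 1 pool an effect of the lost MSI1 cannot be told apart from other effects of its siRNAs. MSI1 mRNA was at 63.7, 61.9 and 66.9 FPKM (fragments normalised to gene length and sequencing depth) in the controls and at 12.1, 12.3 and 11.2 FPKM in siMSI1, which is 18.5% of the siC level. Of the 10 glial and glioma markers looked up, 9 had a mean of at least 0.5 FPKM, VIM, SOX2 and NES among them, while ALDH1L1 was at 0 in all libraries. The lists of oligodendrocyte, blood cell and endothelial markers each summed to at most 0.723 FPKM in any library. Of 6 epithelial markers only KRT8 and KRT18 had a mean of at least 0.5 FPKM (1.06 and 21.2 FPKM). The epithelial list summed to 22.4 to 26.1 FPKM in siC and 19.3 to 23.4 FPKM in siMSI1. Some marker sums differed between the groups. The glial list summed to 1556 to 1618 FPKM in siC and 1310 to 1402 FPKM in siMSI1. Most of this was VIM (means 1035 and 865 FPKM). By mean, NES, SOX2, SOX9, FABP7 and CD44 were also lower in siMSI1. AQP4 (24.3 and 42.5 FPKM), SLC1A3 (18.6 and 21.8 FPKM) and the astrocyte gene GFAP (1.33 to 1.99 and 4.14 to 5.04 FPKM) were higher. The 7 neuronal markers (RBFOX3 at 0) summed to 25.8 to 27.3 FPKM in siC and 19.7 to 20.5 FPKM in siMSI1. SYP, MAP2, SYT1 and TUBB3 among them had means of at least 0.5 FPKM. By mean, SYP, MAP2 and SYT1 were lower in siMSI1, and TUBB3 was not (1.54 and 1.68 FPKM). The 5 endothelial markers summed to 0.134 to 0.262 and 0.290 to 0.442 FPKM, with at most 37 reads for any of them. Of these, CDH5 and PECAM1 were higher and VWF lower in siMSI1. The part of these differences in the results was not tested. In bulk RNA, fewer cells that carry an mRNA and less of it per cell cannot be told apart.

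S100 proteins are small proteins with a pair of EF-hand calcium-binding loops that mostly act as dimers. They change shape on binding calcium and then bind target proteins such as annexins, cytoskeletal proteins and, after release, the receptor AGER (RAGE). Annexins are larger and bind negatively charged membranes in a calcium-dependent way, and they take part in vesicle traffic, membrane repair and the scaffolding of the cell cortex. The families meet in complexes such as the tetramer of annexin A2 and S100A10, which holds plasminogen and its activator at the cell surface. S100B is a classical marker of astrocytes, and S100A4 and S100A6 are known from motile and proliferating cells.

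S100A10, S100A4 and S100A3 are shown by their promoters, since they lie on the same strand of the same chromosome and moved in different directions after the knockdown. The sequences are those of RefSeq on GRCh38.p14, 250 bases before to 50 bases after the annotated start, 5′ to 3′, with matches on either strand to the TATA box word TATAAA, the GC box word GGGCGG or the AP-1 word TGANTCA in capitals. The S100A10 promoter is chr1:151993810-151994109, that of S100A4 is chr1:153545757-153546056 and that of S100A3 is chr1:153549209-153549508, all on the minus strand.
S100A10: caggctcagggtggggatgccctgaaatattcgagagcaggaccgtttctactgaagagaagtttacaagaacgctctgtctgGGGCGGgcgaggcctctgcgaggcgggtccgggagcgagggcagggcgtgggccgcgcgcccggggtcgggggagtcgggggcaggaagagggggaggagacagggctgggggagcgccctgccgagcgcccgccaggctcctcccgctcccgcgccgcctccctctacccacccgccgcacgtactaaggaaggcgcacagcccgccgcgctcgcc
S100A4: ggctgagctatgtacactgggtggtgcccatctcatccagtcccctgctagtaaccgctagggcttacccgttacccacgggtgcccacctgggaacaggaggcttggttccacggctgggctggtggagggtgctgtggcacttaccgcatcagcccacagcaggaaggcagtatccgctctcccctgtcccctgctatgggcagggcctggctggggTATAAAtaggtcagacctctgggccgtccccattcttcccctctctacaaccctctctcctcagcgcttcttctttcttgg
S100A3: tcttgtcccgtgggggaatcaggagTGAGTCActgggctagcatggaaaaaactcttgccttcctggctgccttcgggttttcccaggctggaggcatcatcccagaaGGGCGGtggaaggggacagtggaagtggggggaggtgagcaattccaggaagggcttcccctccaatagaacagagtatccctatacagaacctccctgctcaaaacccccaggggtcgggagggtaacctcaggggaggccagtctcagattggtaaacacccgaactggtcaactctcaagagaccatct
S100A10 had a GGGCGG match and no TATAAA, and its ratio of observed to expected CpG was 0.840. S100A4 had a TATAAA match and no GGGCGG, with a CpG ratio of 0.293. S100A3 had a match each to GGGCGG and TGANTCA and a CpG ratio of 0.212. Over all 35116 promoters in the table the median CpG ratio was 0.579, and 45.0% held GGGCGG, 11.5% TATAAA and 7.71% TGANTCA. The promoters of S100A6 (0.866) and S100A11 (0.781) had CpG ratios near that of S100A10, and those of S100A2 (0.150 and 0.189 at its 2 starts) were low like those of S100A3 and S100A4. S100A1 (0.204), S100Z (0.259) and S100A16 (0.118 and 0.338) also had ratios below the median, and S100A13 had 0.429, 0.375 and 0.848 at its starts. A link between these ratios and the changes was not tested. None of these letters shows that a factor binds there.

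Of the 35 members, 20 had a mean of at least 0.5 FPKM over the 6 libraries and were tested. They comprise 10 S100 genes, 8 annexin genes and the 2 genes matched by name. Levels spanned a wide range: 6 members had a mean of at least 100 FPKM, 4 lay between 10 and 100, 6 between 1 and 10, and 4 between 0.5 and 1. In siC, S100A10 (670 ± 25.5 FPKM, SD, n = 3) and S100A6 (603 ± 44.2) were the highest and their ranges overlapped. They were followed by S100A11 (470 ± 16.8), ANXA1 (193 ± 14.1), S100A16 (121 ± 3.88) and ANXA5 (115 ± 2.83), of which only the last pair overlapped in range. ANXA7, S100A4, ANXA11 and S100A13 came next with means of 38.8, 18.6, 12.5 and 9.94 FPKM, and no neighbours among these overlapped. FPKM divides by the length in the table, which joins all annotated exons of a gene, so levels of genes with long rare exons are understated. For S100A10 the table length was 1543 bases against 671 in the canonical transcript, and for S100A13 it was 2216 against 477.

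**Figure D1:**
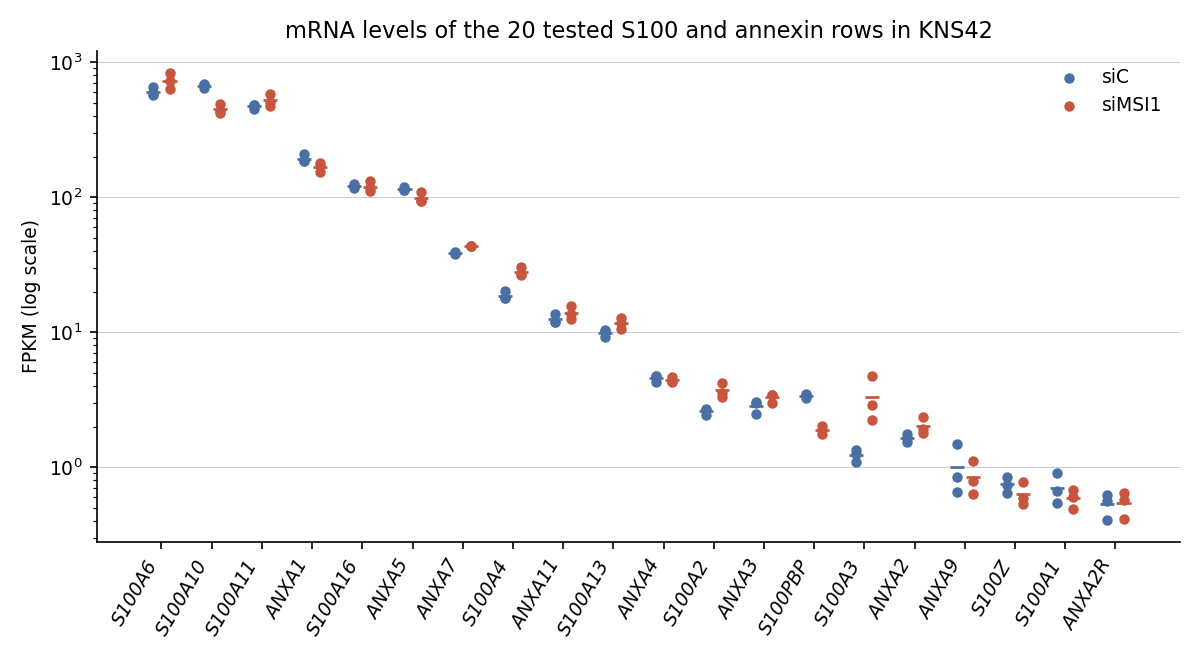
FPKM (log axis) of the 20 tested members in each library, with siC in blue and siMSI1 in red, ordered by mean level. Points are libraries and short lines are group means (n = 3 per group). S100A6, S100A10 and S100A11 lie highest, and the siMSI1 points of S100A10 lie below all of its siC points.

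The other 15 members did not reach 0.5 FPKM. S100B, S100A7, S100A7L2, S100A12, ANXA8 and ANXA8L1 had 0 reads in all 6 libraries. For S100B, 3 reads, the floor taken here for a count of 0, would amount to 0.115 to 0.158 FPKM depending on the library, which covers counting error only. The myeloid calgranulin genes S100A8 and S100A9 had at most 4 and 2 reads in any library. S100A14 had 2 to 9 reads, S100A5 and ANXA10 at most 3, ANXA13 at most 4, and S100A7A and S100P at most 1. ANXA6, whose annexin has a doubled core, had 1 to 7 reads in 5 libraries and 22 in siMSI1 replicate 3. A fall or a small rise from such levels could not be resolved at this depth. With no filter on low genes, those with any reads were tested too, and none of them passed the threshold.

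The knockdown was compared with the control on log2(FPKM + 0.1) over all 15069 genes with a mean of at least 0.5 FPKM, using limma with Benjamini-Hochberg adjustment and an adjusted p of at most 0.01. Fold changes are on this scale and are too small for genes near the added 0.1 FPKM. S100A10 and S100PBP were lower and S100A4 and S100A3 were higher in siMSI1, so 4 of the 20 tested members (20%) passed the threshold, while 11% of all tested genes and 13.1% of the tested protein-coding genes did. Among S100 genes proper 1 fell and 2 rose of 10 tested, where over all genes 5.83% were lower and 5.15% higher. Among annexins 0 of 8 passed under limma, 3 had an unadjusted p under 0.05, and 0 passed by limma's voom on recovered reads (4 had an unadjusted p under 0.05). The median log2 fold change was 0.18 over the 10 S100 genes, 0.05 over the 8 annexins and 0.00 over all tested genes. The 3 siMSI1 values lay all above or all below the 3 siC values for 10 of the 20 members (50%, 6 higher, 4 lower). Over all tested genes, protein-coding or not, the share was 42.8% (21.4% higher and 21.5% lower). Without siC replicate 1, 0 members passed the threshold (5 had an unadjusted p under 0.05), and without siC replicate 3 only S100A4 did.

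**Figure D2:**
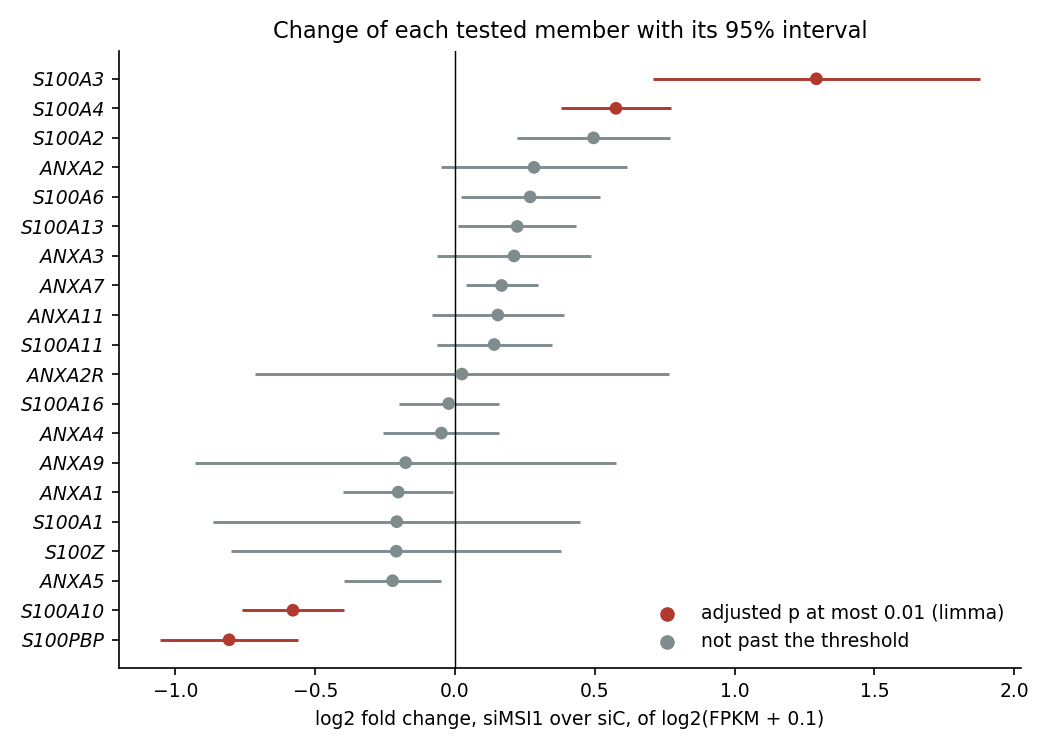
Log2 fold change (siMSI1 over siC) of each tested member with its 95% interval from limma, n = 3 libraries per group. Red marks the 4 members with an adjusted p of at most 0.01: S100PBP and S100A10 below 0 and S100A4 and S100A3 above it.

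S100A10 (ENSG00000197747, chr1:151982915-151993859 on the minus strand of GRCh38), the light chain of the annexin A2 tetramer, fell upon MSI1 knockdown. It differs from other S100 proteins in that its loops have lost calcium binding and it stays in the active shape. Its level was 682, 641 and 688 FPKM in siC and 423, 434 and 491 FPKM in siMSI1, with 8778 to 17899 reads per library. All siMSI1 values lay below all siC values, and the mean was 67.0% of that in siC. The log2 fold change was −0.58 with a standard error (SE) of 0.078 (limma, adjusted p = 0.0021). It stayed between −0.65 and −0.54 in all 17 alternative fits and passed the threshold in 14 of them, with adjusted p-values of 0.016 and 0.012 without siC replicates 1 and 3 and 0.0103 with limma's plain variance moderation.

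The make-up of the S100 mRNA pool differed between the groups. Summed over the S100 genes, the FPKM were 1905, 1811 and 1981 in siC and 1685, 1828 and 2088 in siMSI1, and the groups overlapped. Within this sum, S100A10 made up 35.3 ± 0.528% in siC and 24.1 ± 0.846% in siMSI1 (SD, n = 3 each), while S100A6 made up 31.7 ± 1.09% and 39.0 ± 1.15%. The ratio of S100A6 to S100A10, which does not depend on the scaling of a library, was 0.862, 0.887 and 0.949 in siC and 1.5, 1.67 and 1.69 in siMSI1. The ratio of S100A11 to S100A10 was 0.702 ± 0.0043 in siC and 1.16 ± 0.037 in siMSI1 (SD, n = 3 each). Neither ratio overlapped between the groups (two-sided exact permutation test, p = 0.1 for each, the smallest p that 3 libraries against 3 allow). Both ratios divide by S100A10, already found lower in these same libraries, so they are not separate support for its change. In FPKM the order in siMSI1 was S100A6, S100A11 and S100A10, where the last pair overlapped in range. The place of S100A11 depends on the length used: per base of the canonical transcript in place of the table length, S100A10 stayed above S100A11 in every library, and their ratio was 0.369 ± 0.0023 in siC and 0.607 ± 0.020 in siMSI1. On that scale the ratio of S100A6 to S100A10 was 0.875 ± 0.043 in siC and 1.58 ± 0.10 in siMSI1, so these genes still changed places.

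S100A6 (calcyclin) and S100A11 (calgizzarin), the other abundant S100 mRNAs, did not pass the threshold. S100A6 was at 587, 569 and 653 FPKM in the controls and at 635, 725 and 829 FPKM in siMSI1, and the groups overlapped. Its log2 fold change was 0.27 (95% interval 0.02 to 0.52, adjusted p = 0.11 from limma), and it passed only under voom with a replicate term. S100A11 was at 481, 451 and 480 FPKM in the controls and at 471, 507 and 583 FPKM in siMSI1 (log2 fold change 0.14, 95% interval −0.07 to 0.35, adjusted p = 0.29 from limma). S100A16 was at 117 to 125 FPKM in the controls and 111 to 131 FPKM in siMSI1, and its log2 fold change was −0.02 with an interval from −0.20 to 0.16. In each of S100A6, S100A11 and S100A16 the highest siMSI1 value was that of replicate 3.

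**Figure D3:**
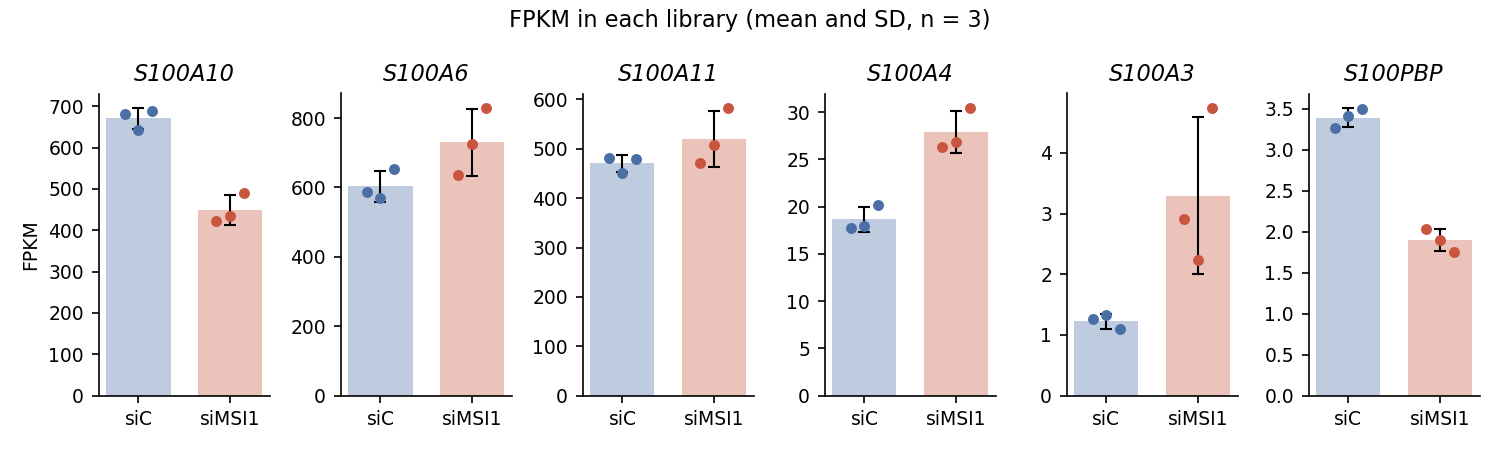
FPKM of 6 members in each library (linear axes from 0). Bars are group means, error bars are SD and points are the 3 libraries of siC (blue) and siMSI1 (red). S100A10 and S100PBP are lower and S100A4 and S100A3 higher in every siMSI1 library, and S100A6 and S100A11 overlap between the groups.

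S100A4 and S100A3 rose. Both belong to the S100 cluster on chromosome 1, where 17 S100A genes span 1649 kb (151982915 to 153632039) and 9 of them were tested. S100A4 (ENSG00000196154, chr1:153543613-153550136), which binds non-muscle myosin and is known from motile tumor cells, was at 17.8, 18 and 20.2 FPKM in the controls and at 26.3, 26.8 and 30.4 FPKM in siMSI1. Every siMSI1 library was above every siC library, with 273 to 448 reads each. The log2 fold change was 0.58 with SE 0.084 (limma, adjusted p = 0.0029), between 0.51 and 0.63 over the 17 alternative fits and past the threshold in 13. Its adjusted p was 0.019 and 0.013 without siC replicates 1 and 2. It also missed the threshold with no filter on low genes and with limma's plain variance moderation.

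S100A3 (ENSG00000188015, chr1:153547329-153549258), an S100 protein rich in cysteine and best known from the hair cuticle, was at 1.26, 1.33 and 1.09 FPKM in the controls and at 2.91, 2.24 and 4.74 FPKM in siMSI1. The groups did not overlap, the spread in siMSI1 was wide, and the values rest on 15 to 65 reads per library. The log2 fold change was 1.29 with SE 0.25 (limma, adjusted p = 0.0093), with 0.91 to 1.53 over the 17 alternative fits. It passed the threshold in 6 of these and not in 4 of the 6 fits that left out a library, where adjusted p-values were 0.026 to 0.032. S100A3 lies within the span of S100A4 on the same strand. In GENCODE release 44 their exons do not overlap, but transcripts that run through both genes or reads from S100A4 introns could be counted for S100A3, which was not tested.

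The other tested genes near this pair in the cluster did not pass the threshold. S100A2, studied mainly in epithelial tumors, was at 2.43, 2.68 and 2.66 FPKM in the controls and at 3.33, 4.24 and 3.56 FPKM in siMSI1. These groups did not overlap (log2 fold change 0.50, standard error 0.12, adjusted p = 0.020 from limma, 57 to 87 reads). S100A13, which takes part in the release of FGF1 without a signal peptide, was at 10.3, 9.20 and 10.3 FPKM in the controls and at 10.5, 11.7 and 12.7 FPKM in siMSI1 (log2 fold change 0.22, adjusted p = 0.11 from limma). S100A1, a regulator of calcium handling in muscle, lies on the opposite strand and shares exonic bases with S100A13. S100A1 was at 0.547 to 0.903 FPKM in siC and 0.493 to 0.680 FPKM in siMSI1 with 22 to 41 reads. Its interval was wide (log2 fold change −0.21, 95% interval −0.86 to 0.45). Exons of an antisense gene, AL162258.2, overlap those of S100A1. AL162258.2 also had 22 to 41 reads (log2 fold change −0.39, adjusted p = 0.13 from limma), and its part in the S100A1 level was not tested. S100Z, on chromosome 5, had 15 to 26 reads and a log2 fold change of −0.21 (95% interval −0.80 to 0.38).

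Short genes differed between libraries of the same group, and S100 genes are short. Among protein-coding genes of at least 5 FPKM, the 62 genes under 1 kb had a median log2 difference of 0.14 in siMSI1 replicate 3 and of −0.19 in siMSI1 replicate 1 from the other libraries of the group, and the 573 genes of 1 to 2 kb differed by 0.11 and −0.13. In siC the medians of these classes lay between −0.07 and 0.08. Of the 10 tested S100 genes, 7 were highest in siMSI1 replicate 3 and 8 lowest in siMSI1 replicate 1 within siMSI1. Between the groups, the median log2 fold change was 0.16 under 1 kb, 0.09 from 1 to 2 kb and −0.04 from 8 kb upwards. The fold changes of S100A10, S100A4 and S100A3 differed from the median of their length class by −0.67, 0.48 and 1.13. These medians cover genes of at least 5 FPKM, and S100A3, with a mean of 2.26 FPKM, lies below that. After each library was corrected for gene length, a step added with the data already known, the log2 fold changes were −0.62 for S100A10 (adjusted p = 0.00077 from limma), 0.51 for S100A4 (0.0019) and 1.23 for S100A3 (0.0104), and that of S100A11 was 0.06. Without siMSI1 replicate 3 they were −0.65, 0.51 and 1.0 in the same order, each past the threshold.

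**Figure D4:**
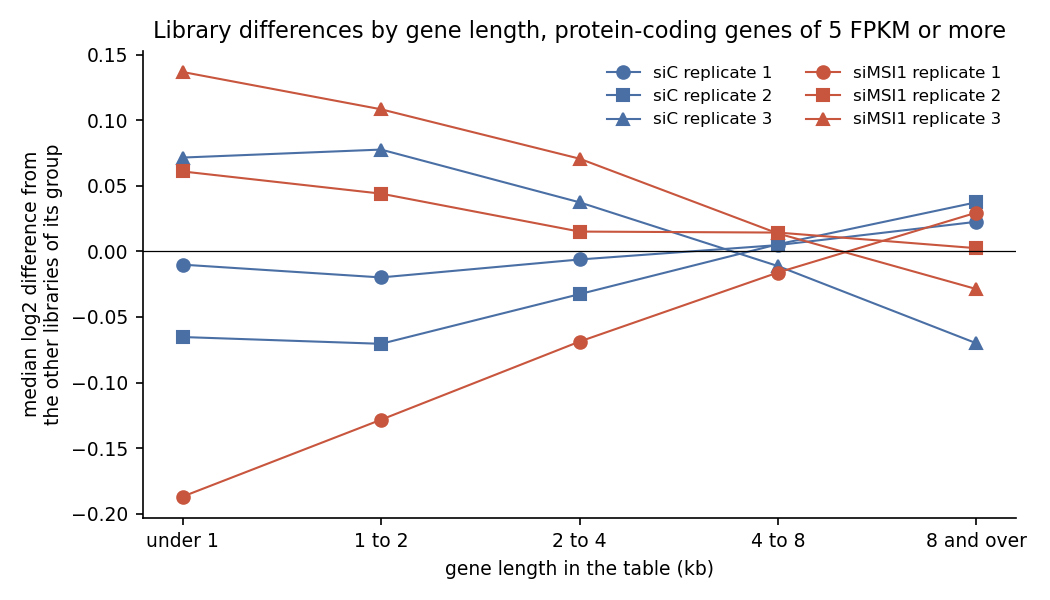
Median log2 difference of each library from the other libraries of its group, by gene length in the table, over protein-coding genes of at least 5 FPKM. The siMSI1 libraries (red) spread most for genes under 1 kb, from −0.19 in replicate 1 to 0.14 in replicate 3.

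ANXA1 and ANXA5 had the highest FPKM of the annexins and together made up 78.8% to 84.1% of the summed annexin FPKM in each library. This sum holds ANXA2 at the uncertain level described with that gene, and without ANXA2 the share was 79.3% to 84.4%. With ANXA2 the sum was 357, 383 and 367 FPKM in siC and 340, 331 and 332 FPKM in siMSI1, without overlap (two-sided exact permutation test, p = 0.1, again the lowest that can be reached). ANXA1 (chr9:73151865-73170393), a glucocorticoid-induced protein that inhibits cytosolic phospholipase A2 and acts on formyl peptide receptors, was at 184, 209 and 185 FPKM in the controls and at 179, 170 and 153 FPKM in siMSI1. Its groups did not overlap, but the log2 fold change of −0.20 did not pass the threshold (95% interval −0.40 to −0.01, adjusted p = 0.12 from limma). ANXA5 (chr4:121667946-121696995), the annexin used to stain exposed phosphatidylserine, was at 114, 113 and 118 FPKM in the controls and at 93.9, 94.0 and 108 FPKM in siMSI1 (log2 fold change −0.22, 95% interval −0.40 to −0.05, adjusted p = 0.066 from limma). Both were past the threshold in 1 of 17 alternative fits, voom with a replicate term, with adjusted p-values of 0.0027 and 0.00088.

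ANXA7, which takes part in calcium-dependent membrane fusion, varied little between libraries, with 38.2, 38.8 and 39.4 FPKM in siC and 43.3, 43.7 and 43.6 FPKM in siMSI1. The groups did not overlap, and the log2 fold change was 0.17 with SE 0.056 (limma, adjusted p = 0.063). Annotated exons of an antisense gene, AL512656.1 (34 to 60 reads), overlap its exons. ANXA11 (12.5 ± 1.05 and 13.9 ± 1.63 FPKM, SD, n = 3 each), an adaptor that tethers RNA granules to lysosomes, and ANXA4 (4.59 ± 0.285 and 4.43 ± 0.207 FPKM) overlapped between siC and siMSI1. ANXA3 was at 2.49 to 3.04 FPKM in siC and 2.99 to 3.45 FPKM in siMSI1 (log2 fold change 0.21, adjusted p = 0.23 from limma). ANXA9, an annexin with divergent calcium sites, had 17 to 39 reads and spread more within siC (0.658 to 1.48 FPKM) than between the groups.

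ANXA2 (chr15:60347134-60402883), the partner of S100A10, was low in the table, at 1.75, 1.64 and 1.53 FPKM in the controls and at 1.81, 1.92 and 2.36 FPKM in siMSI1, from 194 to 299 reads per library. The siMSI1 values lay above the siC values, and the log2 fold change of 0.28 did not pass the threshold (95% interval −0.05 to 0.62, adjusted p = 0.19 from limma). The level is uncertain. Of the 1554 bases of its canonical transcript, 88.7% aligned at 90% identity or more to 3 other places in the genome (blastn). At 95% identity or more, 73.0% of the bases aligned elsewhere. The table lists the processed pseudogenes ANXA2P1 and ANXA2P3 at 0 and ANXA2P2 with 7 to 16 reads. How reads with several matches were counted is not given in the sources used here, and its part in the ANXA2 level was not tested. The table length of 8824 bases also lowers the FPKM. The S100A11 transcript aligned over 89.2% of its length to 1 other place, at 90.5% identity at most, and none of the other tested S100 genes had such a match of at least 100 bases.

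S100PBP (chr1:32816767-32858875), a nuclear protein that binds S100P and is studied in pancreatic cancer, fell from 3.26, 3.42 and 3.49 FPKM in siC to 2.03, 1.90 and 1.76 FPKM in siMSI1, without overlap. The log2 fold change was −0.81 with SE 0.11 (limma, adjusted p = 0.0018, 229 to 568 reads), and 15 of 17 alternative fits passed the threshold, with 0.011 and 0.0102 without siC replicates 1 and 3. YARS overlaps exons of S100PBP on the opposite strand and was at 13.3 FPKM on average (log2 fold change 0.24, adjusted p = 0.061 from limma). S100P itself had at most 1 read. ANXA2R had 13 to 27 reads and a log2 fold change of 0.02 (95% interval −0.72 to 0.77).

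**Figure D5:**
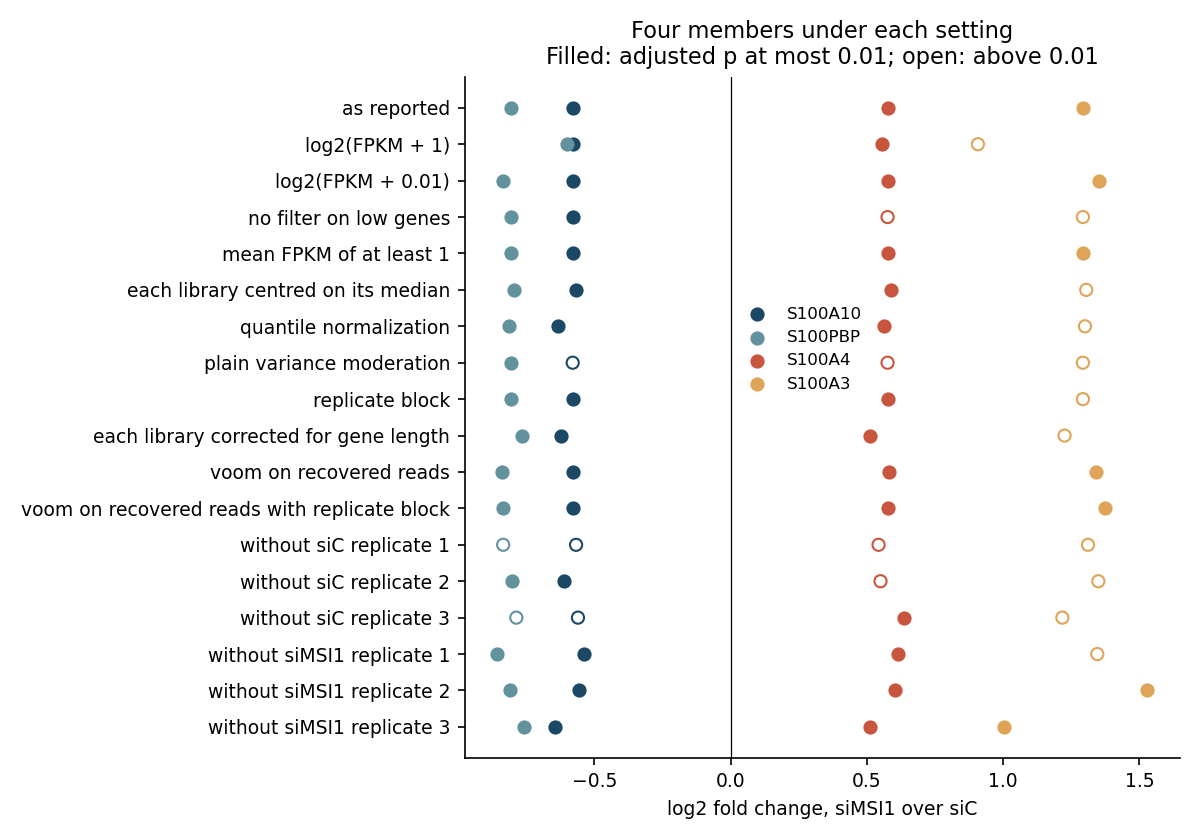
Log2 fold change of the 4 members past the threshold under the reported fit and 17 alternative fits. Filled points have an adjusted p of at most 0.01 and open points do not. The direction was the same in each fit, and S100A3 has the most open points.

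Among 35 partners and receptors of both families, 25 were tested, of which 3 fell and 1 rose, with a median log2 fold change of −0.05. This share of 16% stands beside 11% of all tested genes and 13.1% of the tested protein-coding genes. Only protein-coding genes were used for this and the following lists. The lists were chosen with earlier results of these data known, so their shares are not independent of the data. FGFR1, a growth factor receptor, had a log2 fold change of −0.83 (11.4 to 6.36 FPKM, adjusted p = 0.0011), and the scaffold IQGAP1 one of −0.43 (21.5 to 15.9 FPKM, 0.0048), both from limma. PDCD6 (ALG-2), an EF-hand partner of ANXA7 and ANXA11, fell from 11.4 to 8.72 FPKM (−0.38, adjusted p = 0.0062 from limma). PLA2G4A, the phospholipase that annexin A1 inhibits, rose from 19.3 to 28.3 FPKM (0.55, adjusted p = 0.0045 from limma). The S100A10 ligand AHNAK was expressed at 34.5 FPKM on average and did not pass. Of the receptors, BSG (350 FPKM), TLR4 (69.0) and ALCAM (19.4) were expressed and did not pass, while AGER, FPR1, FPR2 and FPR3 had means of 0.130 FPKM or less.

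In the plasminogen system, 1 of 8 tested genes passed: PLAT, the tissue plasminogen activator, rose from 2.30, 2.11 and 2.35 FPKM to 4.39, 4.16 and 4.75 FPKM (log2 fold change 0.94, standard error 0.10, adjusted p = 0.00084 from limma). That is 12.5%, beside 11% of all tested genes and 13.1% of the tested protein-coding genes. The median log2 fold change over these 8 genes was 0.24. Of 22 tested genes of plasma membrane repair, CHMP3, an ESCRT-III subunit, fell from 14.9, 15.5 and 14.6 FPKM to 6.60, 8.04 and 6.76 FPKM (−1.07, adjusted p = 0.00040 from limma), and PDCD6 was the other gene past the threshold (9.09% of the list). Of 39 tested EF-hand proteins outside the S100 family, HPCAL1, a neuronal calcium sensor, rose from 6.08 to 8.84 FPKM (0.53, adjusted p = 0.0051 from limma) and PDCD6 fell. These are 5.13% of the list. The 7 genes of the S100-fused type, such as filaggrin, were all under 0.5 FPKM. Overlapping genes were not examined for these lists.

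MSI1 binds RNA at UAG, mostly in 3′UTRs, so the 3′UTRs of the members were searched for this word. The 248 bases of the S100A10 3′UTR hold 3 UAG, shown here in capitals with up to 11 bases on each side, as given by GENCODE release 44 on GRCh38, at chr1:151983068-151983092, chr1:151983037-151983061 and chr1:151982915-151982935 on the minus strand.
S100A10 at base 82 of the 3′UTR: agcuucccccaUAGaaggauuucau
S100A10 at base 113 of the 3′UTR: aucaggacacuUAGcaaauguaaaa
S100A10 at base 239 of the 3′UTR: aaguucuuuuuUAGuuccaaa
This is 12.1 UAG per kb, against a median of 11.2 and quartiles of 7.38 and 14.3 over 11259 tested protein-coding genes, 94.5% of which hold at least 1. The S100A4 3′UTR (138 bases) holds 0 UAG, that of S100A3 holds 2 in 353 bases, and that of S100PBP holds 55 in 2837 bases (19.4 per kb). Of the members that did not pass, ANXA1 (6 in 286 bases), ANXA5 (11 in 522 bases, 21.1 per kb) and ANXA2R (2 in 94 bases) had more UAG per kb than S100PBP. A link between the number of UAG and the changes was not tested. Binding by MSI1 was not measured in these libraries.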

How the data were processed

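polyA RNA of KNS42 cells was sequenced in 6 libraries, 3 per group, assigned from their titles. Per the labels and the methods, the authors clipped reads with cutadapt 1.14, aligned them to GRCh38 with HISAT2 2.1.0, counted them per gene with featureCounts 1.5.3 on Ensembl release 89 and used edgeR 3.18.1 with TMM normalization. The deposited values are FPKM. The deposited log2 fold changes and p-values are the authors' own comparison and were not used. Multiplied by gene length, 100% of the FPKM above 0 came out as whole reads (tolerance 0.01 reads), giving 13087025 to 18024080 reads on genes per library. Members took 0.337% to 0.382% of these. A floor of 3 reads is 0.166 to 0.229 FPKM for a gene of 1 kb. Intervals and floors cover counting error or library spread only.

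The test was that of limma 3.58.1 (R 4.3.3) on log2(FPKM + 0.1), for genes with a mean of at least 0.5 FPKM (lmFit, eBayes with trend and robust, no block). p-values were two-sided and adjusted by Benjamini-Hochberg over all tested genes. The fits were run on simulated counts with known changes. Members and gene lists were chosen with earlier results of these data known. All members were named, and of each list the genes past the threshold, at most 6. The alternatives were other added values, filters, scalings and variance moderation, an adjusted p of 0.05, the replicate number as a block, leaving out each library, and voom on recovered reads. A correction for gene length was added after the data were seen. Positions and transcripts came from GENCODE release 44 (98.7% of gene identifiers found) and promoters from RefSeq, which matched all 20 tested members. blastn 2.17.0 searched canonical transcripts against GRCh38 (at least 90% identity over 100 bases). Python 3.11.15 was used for the rest.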

Additional observations from a re-analysis of the deposited data

How the results depend on the processing

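Of 336 refitted values of single members, 76 equalled the reported value, since those settings change only the test, and 255 of the other 260 kept their direction. The exceptions were ANXA2R, ANXA9 and S100A16, far from the threshold, with log2 fold changes from −0.12 to 0.17, −0.41 to 0.12 and −0.090 to 0.026 over the fits that left out a library. Leaving out a library gave 0 to 2 members lower, 0 to 2 members higher, 517 to 1603 genes of all those tested and 3 to 10 genes of the related lists (7 as reported) past the threshold. Members higher numbered 1 with log2(FPKM + 1), with libraries centred on their median, with quantile normalization and with the correction for gene length, and 0 with no filter on low genes and with plain variance moderation, which left 1 member lower. Over all genes (1655 as reported) the count was 792 with no filter, 847 with plain moderation, 2815 with voom, 4974 with voom and the replicate block, and 3787 at an adjusted p of 0.05. The list genes numbered 3 with no filter, 3 with plain moderation, 12 with quantile normalization, 22 with voom, 38 with voom and the replicate block and 26 at 0.05. With the replicate block in limma, 2 members were lower, 1 was higher (S100A3 was lost, adjusted p = 0.016), 14 list genes passed and 2250 genes of all did. With voom and the block 4 members were lower and 3 higher. The labels do not say whether same-numbered libraries belong together. Their deviations correlated at −0.066, 0.078 and 0.083 for numbers 1, 2 and 3. siC replicates 2 and 3 correlated best with the same number in siMSI1, and siC replicate 1 with siMSI1 replicate 3 (0.059). A pairing can therefore be neither assumed nor excluded. Low read numbers limit S100A3, S100A1, S100Z, ANXA9 and ANXA2R. The cause of these shifts was not tested. The length correction was chosen after the data were seen.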
